A study of Mus musculus with 6 samples.

Results

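The 8 genes *Clec4f*, *Vsig4*, *Cd5l*, *Timd4*, *Folr2*, *Cd209f*, *Id1* and *Id3* mark or help specify Kupffer cells, the resident macrophages of the liver sinusoid. They were chosen by name, and all 8 were found among the 60832 genes of the count table. RNA-seq had been performed on mouse cells labelled as liver sinusoidal endothelial cells (LSECs), the cells lining the same sinusoids. By the labels they were isolated from HCT116 CRCLM xenografts, and the methods describe the digestion of liver metastatic tissue. HCT116 is a human colon carcinoma line, and CRCLM stands for colorectal cancer liver metastasis. There were 3 libraries from bevacizumab-sensitive and 3 from bevacizumab-resistant xenografts, named below by group and replicate number. Bevacizumab is an antibody against the growth factor VEGF. Per the methods the hosts were male BALB/c-Nu mice, an athymic strain that lacks most T cells and keeps its macrophages and neutrophils. The tumor cells were injected into the liver, and resistance was acquired under prolonged bevacizumab given intraperitoneally, while the vehicle group received IgG. The labels do not say which treatment the mice of the sensitive group had received, the age of the mice at isolation, or whether animals were pooled. Cells of both groups were captured with anti-CD146 beads, and the labels add that they were cultured for 24 h. The libraries of a group are separate samples in the labels, but nothing states that each came from its own mouse, so p-values measure only the spread between these libraries.

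The labelled cell type was checked against marker genes. Most LSEC genes were low. *Stab2* lay between 29.1 and 142 CPM (counts scaled to the total of the library) and *Clec4g* between 0.809 and 5.69. *Mcam*, which encodes the bead target CD146, lay between 0.303 and 3.84. *Lyve1*, another LSEC gene, varied widely. It measured 65.3, 7.67 and 187 CPM in the sensitive libraries 1, 2 and 3 and 253, 8.45 and 129 CPM in the resistant ones. The endothelial gene *Cdh5* lay between 18.0 and 234 CPM. Per gene length, in FPKM, the median of 11 LSEC genes lay between 0.516 and 2.20 in the 6 libraries and that of 14 general macrophage genes between 440 and 612. The methods state that flow cytometry found the isolated cells CD146+ at high purity. The transcript levels go against the label, and the libraries are called LSEC only as their labels do. The total count was between 17599326 and 20726684 per library, and 3 counts corresponded to between 0.145 and 0.170 CPM, a floor that covers counting error only. In bulk RNA, fewer cells of a type and less RNA per cell cannot be told apart.

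Kupffer cells take their identity from their place in the sinusoid. Endothelial and stellate cells offer them Notch ligands, TGF-β and bone morphogenetic proteins (BMPs), and CSF1 and IL-34 keep them alive. BMP signals pass through SMAD proteins and raise the ID proteins, which are helix-loop-helix factors without a DNA-binding region that tie up other transcription factors. The nuclear receptor LXRα (*Nr1h3*), PU.1 (*Spi1*), ZEB2 and SPIC then hold the program of receptors that clear bacteria, dying cells and old erythrocytes from portal blood.

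The promoters of 7 of the 8 members were matched by symbol in the RefSeq table of GRCm38.p6, with 8 start sites in all, and *Id1* was not matched. The 250 bases before each start were searched on both strands for 2 motifs of such factors. The letters were chosen after these sequences had been seen, and the motifs did not overlap. The 2 promoters with a match, those of *Timd4* and *Folr2*, are shown because they matched. A link between the match and the fold changes was not tested. Capitals mark the match.

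*Timd4*, chr11:46810549-46810798, plus strand: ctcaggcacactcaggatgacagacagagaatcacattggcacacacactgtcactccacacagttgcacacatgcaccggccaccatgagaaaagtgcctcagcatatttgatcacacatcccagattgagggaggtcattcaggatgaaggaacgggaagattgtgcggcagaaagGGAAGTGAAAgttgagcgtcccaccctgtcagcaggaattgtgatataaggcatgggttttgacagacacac

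*Folr2*, chr7:101857191-101857440, minus strand: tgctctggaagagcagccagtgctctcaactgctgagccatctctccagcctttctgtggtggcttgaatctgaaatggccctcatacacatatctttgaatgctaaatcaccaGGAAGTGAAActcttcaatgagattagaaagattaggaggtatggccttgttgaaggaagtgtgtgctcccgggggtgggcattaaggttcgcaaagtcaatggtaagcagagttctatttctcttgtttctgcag

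*Timd4* and *Folr2* both held the same 10 letters of the composite PU.1 and IRF element, which is GGAA and, 2 bases on, GAAA. In *Timd4* they ran from 72 to 63 bases before the start and in *Folr2* from 136 to 127. Of 32851 promoters searched, 756 held that element, or 2.3%. The GC-rich SMAD element (GGCGCC) occurred in 3149 promoters, or 9.59%, and in 0 of the 8 member promoters, the one of *Id3* included. These matches are letters in a window and not binding sites.

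Per length, the members ranged from a secreted protein among the most abundant transcripts to a lectin at the floor. The order was read in FPKM, the counts scaled by the authors to gene length and library total. *Cd5l* led with a mean of 2631 ± 552 FPKM (SD, n = 6 libraries), followed by *Clec4f* with 1244 ± 488, *Vsig4* with 713 ± 276, *Id3* with 45.8 ± 22.9, *Timd4* with 35.0 ± 23.0, *Id1* with 17.9 ± 6.75 and *Folr2* with 7.44 ± 2.66. *Cd209f* was last with 0.0128 ± 0.0314. Steps down from *Cd5l* to *Clec4f*, from *Vsig4* to *Id3* and from *Folr2* to *Cd209f* held in 6 of 6 libraries without overlap of the ranges. The ranges of the other neighbours overlapped: *Clec4f* exceeded *Vsig4* in 5 libraries, *Id3* exceeded *Timd4* in 4, *Timd4* exceeded *Id1* in 4 and *Id1* exceeded *Folr2* in 5. Together the members took between 0.718% and 1.27% of all counts, and *Cd5l* alone between 44.2% and 62.3% of the members' counts. By FPKM, *Cd5l* ranked between 8 and 13 among all genes of a library, *Clec4f* between 19 and 47 and *Vsig4* between 34 and 214.

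**Figure D1:**
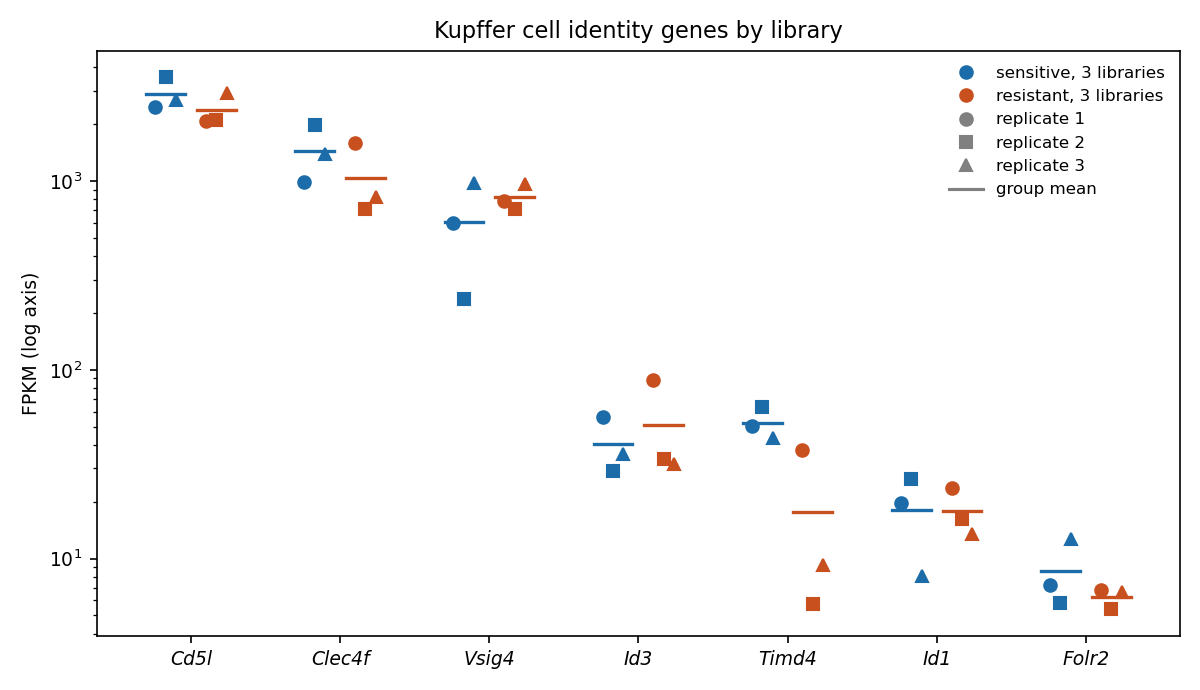
FPKM of 7 members on a log axis in each of the 6 libraries, with circles, squares and triangles for replicates 1, 2 and 3 and a line at each group mean. *Cd209f*, at or under the floor in every library, is left out. *Cd5l*, *Clec4f* and *Vsig4* sit above 236 FPKM in every library and the other members at or below 88.1 FPKM. The resistant libraries 2 and 3 of *Timd4* stand apart at 5.73 and 9.26 FPKM.

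*Cd5l* (chr3:87357881-87371073, plus strand, with all gene positions here from GENCODE M21 on GRCm38) encodes a secreted scavenger protein of the cysteine-rich family that tissue macrophages release into plasma and that LXR induces. In libraries 1, 2 and 3 it measured 5012, 7216 and 5466 CPM in the sensitive group and 4245, 4279 and 5926 CPM in the resistant group, the order used for every gene below. The groups overlapped, because the resistant library 3 exceeded both lower sensitive libraries. The mean was 5898 ± 1164 CPM against 4817 ± 961 CPM (SD, n = 3 each). *Cd5l* was the steadiest member, with a 1.70-fold span between its lowest and highest library.

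Among the receptors, *Clec4f* (chr6:83644542-83656187, minus strand) encodes a C-type lectin for galactose-bearing glycans that is found in mice on Kupffer cells alone. It measured 2448, 4875 and 3420 CPM in the sensitive and 3908, 1750 and 2042 CPM in the resistant libraries. The resistant library 1 was second only to the sensitive library 2, and the resistant libraries 2 and 3 were the lowest of all. The means were 3581 ± 1221 and 2567 ± 1171 CPM.

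*Vsig4* (chrX:96247203-96293438, minus strand) encodes the complement receptor CRIg, with which Kupffer cells catch opsonized bacteria. Its values were 895, 350 and 1455 CPM in the sensitive and 1166, 1049 and 1436 CPM in the resistant libraries. The sensitive group spanned the whole resistant range, and the sensitive library 2 was the lowest by a wide margin. The span was 4.15-fold over the sensitive libraries and 1.37-fold over the resistant ones.

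*Timd4* (chr11:46810800-46844332, plus strand) encodes TIM-4, a receptor for phosphatidylserine on dying cells that marks long-settled Kupffer cells and is gained late by macrophages derived from monocytes. It measured 110, 138 and 94.0 CPM in the sensitive and 82.0, 12.4 and 20.1 CPM in the resistant libraries. Every resistant library was below every sensitive one. The resistant library 1 was close to the sensitive range, however, and the resistant group alone spanned 6.59-fold. These values rest on between 246 and 2432 counts per library, well over the floor.

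*Folr2* (chr7:101839988-101857194, minus strand) encodes folate receptor beta, a surface protein of resident macrophages. It was low, with 11.3, 9.03 and 19.6 CPM in the sensitive and 10.5, 8.35 and 10.3 CPM in the resistant libraries. The sensitive library 3 alone lay above the rest, and the groups overlapped. After scaling by the trimmed mean of M-values (TMM), the values were 10.6, 10.3 and 19.7 CPM against 9.81, 8.46 and 10.1 CPM, which no longer overlapped by a narrow margin.

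*Cd209f* (chr8:4102787-4105835, minus strand), a lectin gene of the DC-SIGN cluster, had 3 counts in the sensitive library 1, which is 0.153 CPM, and 0 counts in the other 5 libraries. A count of 0 allows a level of up to between 0.145 and 0.170 CPM in these libraries, so no difference was detectable at this depth. Its neighbours in the family, *Cd209a*, *Cd209b*, *Cd209c*, *Cd209d*, *Cd209e* and *Cd209g*, summed to at most 0.434 CPM in any library.

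The regulators *Id1* (chr2:152736251-152737410, plus strand) and *Id3* (chr4:136143497-136145755, plus strand), the targets of BMP signals, did not share one pattern. *Id1* measured 23.0, 30.7 and 9.34 CPM in the sensitive and 27.3, 18.9 and 15.6 CPM in the resistant libraries. *Id3* measured 100, 52.3 and 64.5 CPM in the sensitive and 158, 60.5 and 56.7 CPM in the resistant libraries. The resistant library 1 was the highest for *Id3*, and the sensitive library 2 was the highest for *Id1* but, in CPM without further scaling, the lowest for *Id3*. In FPKM, *Id1* stood at 35.4, 90.6 and 22.4 per 100 of *Id3* in the sensitive and at 26.7, 48.2 and 42.5 in the resistant libraries.

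The comparison the labels imply is that of LSECs from resistant against sensitive xenografts. The members gave no difference that passed the test. edgeR's quasi-likelihood test was fitted to the 15474 genes that passed the filter on low counts, which kept 7 members and dropped *Cd209f*. With Benjamini-Hochberg adjustment over all of them, 0 of the 7 had an adjusted p-value under 0.05, against a background of 0.0% of all genes tested. At an unadjusted p-value under 0.05, 1 member was lower and 0 were higher in the resistant group. By that rule 2.54% of all genes were lower and 0.536% higher, 3.08% in all.

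*Timd4* was that member, with a log2 fold change of -1.70, or 3.25-fold lower in the resistant group (SE 0.663 and a 95% interval from -3.26 to -0.13 on the log2 scale). edgeR's unadjusted p-value was 0.0371 and its adjusted p-value 0.940. The mean was 114 ± 22.4 CPM in the sensitive and 38.2 ± 38.1 CPM in the resistant group (SD, n = 3 each). The exact permutation test over the 6 libraries gave p = 0.1, two-sided, which is the smallest that 3 libraries against 3 allow. The groups did not overlap in CPM for 3.38% of all genes with the resistant group lower and for 5.01% with it higher, 8.39% in all, and *Timd4* was the only one of the 7 tested members for which they did not. The size depended on which libraries were in the fit. Leaving out the resistant library 1 gave a log2 fold change of -2.87. Leaving out the resistant library 2 gave -1.29, with an edgeR unadjusted p-value of 0.0757, and that p-value was also over 0.05 when the resistant library 3, the sensitive library 1 or the sensitive library 2 was left out.

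The other 6 tested members had intervals that included 0. The log2 fold change was -0.60 for *Clec4f* (95% interval -1.61 to 0.41), -0.51 for *Folr2* (-1.30 to 0.27) and -0.38 for *Cd5l* (-1.11 to 0.35). It was -0.13 for *Id1* (-1.24 to 0.98), 0.28 for *Id3* (-0.70 to 1.26) and 0.40 for *Vsig4* (-0.66 to 1.46). These intervals reach past a 2-fold change in at least one direction for each of the 6, so changes of that size were not resolved. Adjusted p-values from edgeR were 0.940 for each except *Id1*, with 0.965. For *Folr2* the exact permutation test on log2 CPM after TMM scaling gave p = 0.1, and for the other 5 it gave between 0.3 and 1.0. Single libraries decided some of these values. Leaving out the resistant library 1 turned *Id3* to -0.31. *Id1* was 0.36 and -0.50 when the sensitive library 2 or 3 was left out, and 0.03 when the resistant library 3 was. *Vsig4* was 0.04 and 0.94 with the sensitive library 2 or 3 left out. Leaving out the sensitive library 2 moved *Clec4f* to -0.22 and *Cd5l* to -0.12, leaving out the resistant library 1 moved *Clec4f* to -0.99, and leaving out the sensitive library 3 moved *Folr2* to -0.14. Over the 7 tested members the median log2 fold change was -0.38, with 2 above 0 and 5 below 0, and over all tested genes it was 0.01. The members' median was -0.12 when the sensitive library 2 was left out.

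**Figure D2:**
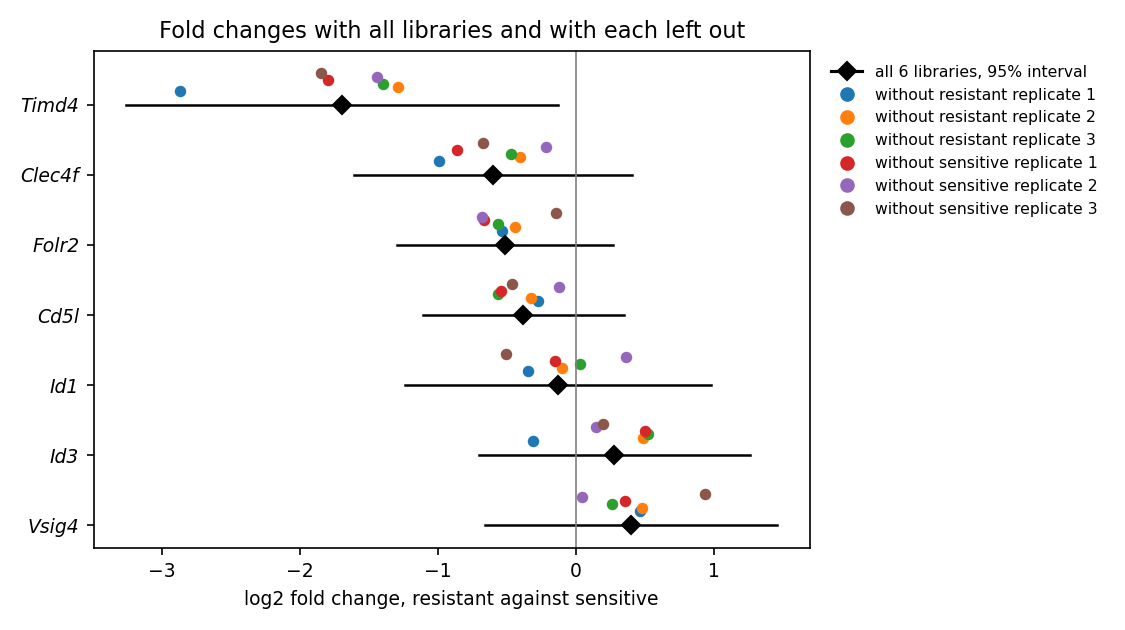
Log2 fold change of the 7 tested members, resistant against sensitive, from edgeR with all 6 libraries (diamond, with its 95% interval) and with each library left out in turn (colored points). The interval of *Timd4*, from -3.26 to -0.13, lies below 0, and its value without the resistant replicate 1 is -2.87. The points of *Id1* and *Id3* fall on both sides of 0.

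For every tested member except *Timd4*, most of the variation lay between libraries of one group. The share of the variance of log2 CPM that lay between the groups was 62.5% for *Timd4*, 33.5% for *Folr2*, 27.3% for *Cd5l*, 26.1% for *Clec4f*, 21.4% for *Vsig4*, 2.58% for *Id3* and 0.0569% for *Id1*. The median over all tested genes was 14.9%, and of the members only *Id3* and *Id1* were below it. *Timd4* also had a wide spread within the groups, with an SD of 0.996 on the log2 scale. That exceeded the SD of 96.5% of the 9456 tested genes with an average log2 CPM of at least 3, whose median was 0.354. The SD within groups was 0.359 for *Cd5l*, near that median.

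The members did not share one pattern across the 6 libraries. Their patterns were compared by the root mean square difference of centred log2 CPM, where 0 means the same shape. The closest pairs were *Cd5l* with *Folr2* at 0.464 and *Clec4f* with *Cd5l* at 0.473, and the farthest was *Vsig4* with *Timd4* at 1.75. In the sensitive library 2, *Clec4f*, *Cd5l* and *Timd4* had their highest values while *Vsig4* had its lowest, in CPM and after TMM scaling. *Id3* was lowest there in CPM, with 52.3 CPM, but after TMM scaling it was lowest in the resistant library 3, at 55.8 against 59.3 CPM. Over the tested genes as a whole, the sensitive library 2 also differed most within its group. The chi-square of its counts, per gene, was 219 against the sensitive library 1 and 279 against the sensitive library 3. Between the sensitive libraries 1 and 3 it was 64.5. The part of this wider deviation in the members' patterns was not tested. Within a library, *Timd4* stood at 5.10, 3.22 and 3.13 per 100 of *Clec4f* in FPKM in the sensitive and at 2.38, 0.809 and 1.12 in the resistant group. The groups did not overlap in this ratio, with a log2 difference of -1.52 and an exact permutation p = 0.1, again the smallest possible. Reading against *Clec4f* was chosen after the data had been seen, so this p-value is descriptive only. *Vsig4* stood at 60.9, 11.97 and 70.8 per 100 of *Clec4f* in the sensitive and at 49.7, 99.9 and 117 in the resistant libraries, which overlapped.

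**Figure D3:**
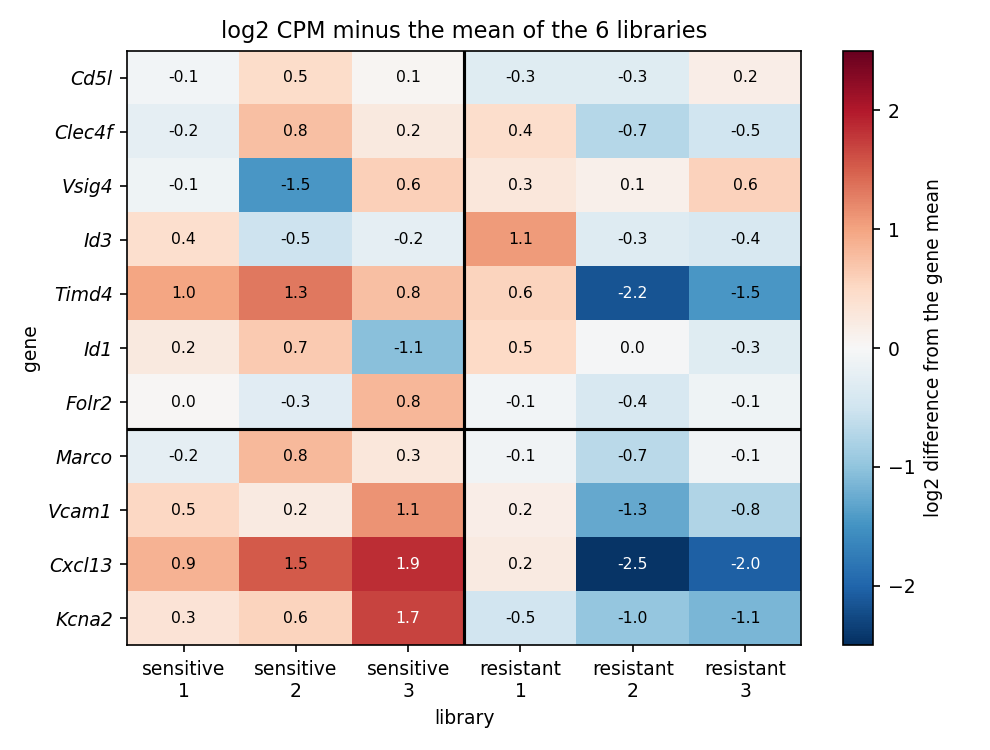
Heat map of log2 CPM minus the gene's mean over the 6 libraries, with the 7 members above the line and 4 other Kupffer cell genes below it, of which *Vcam1* was chosen after its values were seen. Columns are libraries, red is above and blue below the mean. *Timd4* and *Cxcl13* are lowest in the resistant libraries 2 and 3, and *Vsig4* is lowest in the sensitive library 2.

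For each member the genes with the most similar pattern over the 6 libraries were found by the same measure among genes with an average log2 CPM of at least 3. For *Clec4f* they were *Tha1* at 0.0918, *Cxcl16* at 0.116 and *Ppfia4* at 0.153, where the median gene stood at 0.671. For *Vsig4* they were *Edem3* at 0.0725, *Atp13a3* at 0.0946 and *Bmpr2*, a BMP receptor, at 0.102. For *Cd5l* they were *Tecpr1* at 0.0657, *Smim11* at 0.108 and *Manf* at 0.116. *Id1* was closest to *Ncapd2* at 0.114, *Top2a* at 0.124 and *Cdca8* at 0.154, and these encode a condensin subunit, a topoisomerase and a chromosomal passenger protein of dividing cells. *Id3* was closest to *Dpy19l3* at 0.177, *Cntrl* at 0.216 and *Mtdh* at 0.222, and *Folr2* to *Msi2* at 0.0998, *Eny2* at 0.115 and *Gm13456* at 0.127. The measure grows with the spread of the gene itself, and *Timd4* had the widest, with an SD of 1.33 over the 6 libraries. Its closest genes were an unannotated locus that stood at 0.247, *Art2a* at 0.359 and *H2-Q4*, an MHC class I gene, at 0.419, with 1.38 for the median gene. *H2-Q4* measured 246, 309 and 156 CPM in the sensitive and 290, 48.4 and 57.8 CPM in the resistant libraries, so its low libraries were those of *Timd4*.

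Each member was also read relative to 14 general macrophage genes, as its log2 CPM minus their mean log2 CPM in the same library. On this scale *Timd4* stood at -2.58, -2.29 and -3.19 in the sensitive and at -3.01, -5.92 and -5.02 in the resistant libraries. The resistant library 1 now lay inside the sensitive range. The difference of the means was -1.96 with an exact permutation p = 0.2. It was -0.45 for *Clec4f* (exact p = 0.4), -0.31 for *Folr2* (exact p = 0.4), -0.22 for *Cd5l* (exact p = 0.6), 0.16 for *Id1* (exact p = 0.9), 0.30 for *Id3* (exact p = 0.5) and 0.72 for *Vsig4* (exact p = 0.2). The groups overlapped for all 7 members on this scale.

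**Figure D4:**
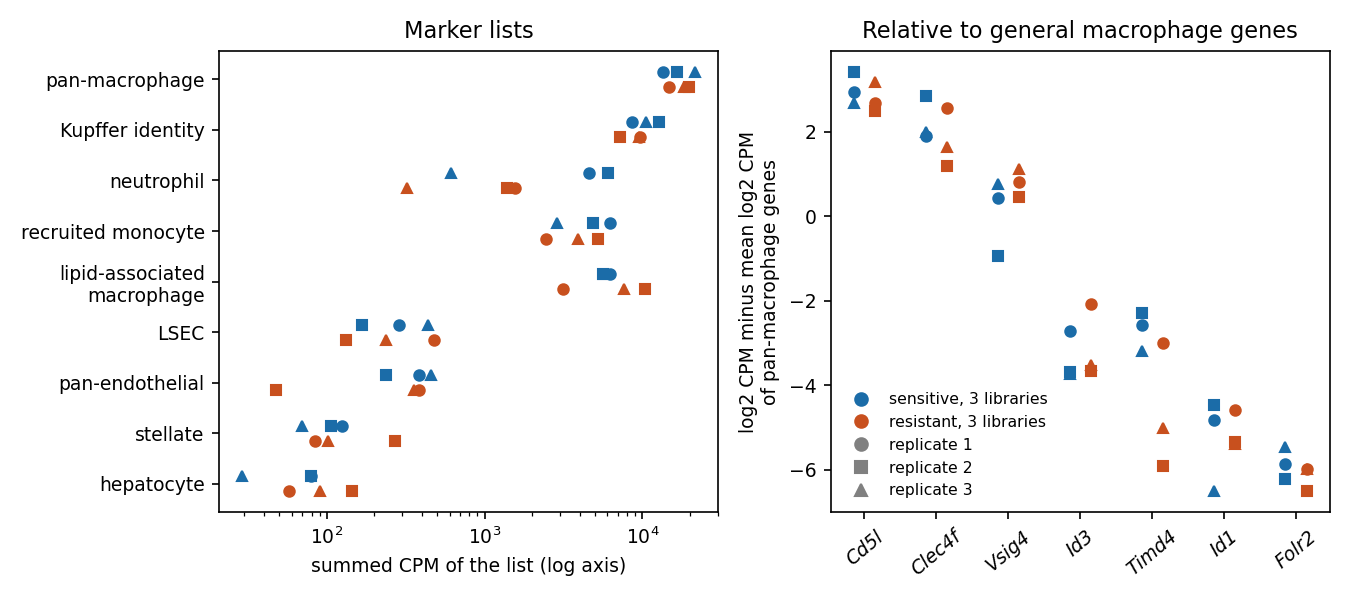
Left, summed CPM of 9 marker lists on a log axis, 1 point per library. Right, log2 CPM of each member minus the mean log2 CPM of the 14 pan-macrophage genes in the same library. The pan-macrophage sums of 13414 to 21656 CPM exceed the LSEC sums of 133 to 478 CPM, and on the right *Timd4* of the resistant libraries 2 and 3 lies at -5.92 and -5.02.

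Other genes known from Kupffer cells were taken from a list of 19, of which 18 were tested. By edgeR's adjusted p-value 0 of them were called. At an unadjusted p-value under 0.05, 5 were lower and 0 higher, and the groups did not overlap for 4, all lower in the resistant group. Over all tested genes these shares were 2.54% lower and 0.536% higher by unadjusted p-value, and 3.38% without overlap and lower. The median log2 fold change was -0.49, with 6 above 0 and 12 below 0. *Marco*, a scavenger receptor for particles and bacteria, had the highest CPM. It measured 5816, 11920 and 8361 CPM in the sensitive and 6430, 4275 and 6407 CPM in the resistant libraries, with overlapping groups and a log2 fold change of -0.72. *Slc40a1*, which encodes the iron exporter ferroportin, measured 1465, 583 and 2037 CPM against 2164, 1647 and 2430 CPM, with overlap and a value of 0.58.

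*Cxcl13*, a chemokine that draws B cells, measured 25.5, 40.3 and 50.2 CPM in the sensitive and 16.2, 2.53 and 3.38 CPM in the resistant libraries. The groups did not overlap, and the low libraries were those that were low for *Timd4*. The log2 fold change was -2.51 with an adjusted p-value of 0.940 in edgeR. *Kcna2*, a potassium channel gene, measured 62.5, 73.2 and 160 CPM against 35.4, 25.3 and 22.5 CPM. Here all 3 resistant libraries were low, with a log2 fold change of -1.90 and an adjusted p-value of 0.940 in edgeR. *Vcam1*, an adhesion molecule of Kupffer cells and of endothelium, was picked out after its values were seen. It measured 1239, 1013 and 1900 CPM against 979, 359 and 517 CPM, with a log2 fold change of -1.24.

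The signals of the niche were mostly scarce in these libraries. Of 11 genes for BMPs, TGF-β, Notch ligands, CSF1 and IL-34, 9 were tested, 0 passed at an unadjusted p-value under 0.05 in either direction, and the median log2 fold change was -0.23. *Tgfb1* had the highest CPM, with 214, 227 and 192 CPM in the sensitive and 220, 214 and 217 CPM in the resistant libraries, and its groups overlapped. *Csf1* measured 129, 45.7 and 102 CPM against 114, 143 and 87.4 CPM. *Bmp10* was at most 1.21 CPM and *Bmp4* at most 2.58 CPM in any library.

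The 9 genes for the receptors of these signals were all tested, and 0 passed at an unadjusted p-value under 0.05. All 9 had log2 fold changes above 0, with a median of 0.22, while 7855 of all 15474 tested genes were above 0. Most of the 9 had their lowest CPM in the sensitive library 2. The part of that library in the shared sign was not tested. *Csf1r*, the receptor that macrophages need to survive, measured 902, 571 and 1312 CPM against 1383, 957 and 1032 CPM. *Tgfbr2* measured 424, 178 and 488 CPM against 512, 450 and 379 CPM. The groups overlapped for both. *Bmpr1a* and *Bmpr2*, with the largest fold changes of the list, had log2 values of 0.35 and 0.35 and overlapping groups.

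Among 14 transcriptional regulators of the Kupffer cell program, 0 passed at an unadjusted p-value under 0.05, with 10 log2 fold changes above 0, 4 below 0 and a median of 0.12. *Spi1* was steady at 396, 369 and 317 CPM against 440, 327 and 300 CPM. *Tfec* had the largest value, 0.56, with 74.4, 45.8 and 72.4 CPM in the sensitive and 122, 69.5 and 104 CPM in the resistant libraries. *Nr1h3*, which encodes LXRα, had a value of -0.46 and overlapping groups, with 96.4, 161 and 50.4 CPM against 120, 55.1 and 68.8 CPM.

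Readouts of the BMP, Notch and LXR pathways other than the members were 9 genes, all tested. None passed at an unadjusted p-value under 0.05, and 4 were above and 5 below 0 with a median of -0.18. The LXR targets *Abca1* and *Abcg1*, which export cholesterol, had log2 fold changes of -0.25 and -0.21. *Smad6*, an inhibitor that BMP signals induce, measured 13.2, 4.77 and 16.0 CPM against 29.0, 15.02 and 14.9 CPM. Its highest library was the resistant library 1, which was also the highest for *Id3*, and its groups overlapped.

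The relatives of the members gave few further values. *Id2* measured 243, 51.2 and 207 CPM against 225, 232 and 153 CPM and shared with *Vsig4* its lowest library, the sensitive library 2. *Id4* was scarce, with 2.29, 4.32 and 2.48 CPM against 1.69, 0.303 and 0.936 CPM, and its groups did not overlap. Its log2 fold change was -1.75 with an adjusted p-value of 0.940 in edgeR. *Havcr2*, which encodes TIM-3, measured 31.9, 21.5 and 37.7 CPM against 25.2, 35.2 and 22.6 CPM, while *Havcr1* had 0 counts in all 6 libraries and *Timd2* at most 0.255 CPM. *Folr1*, which encodes folate receptor alpha, lay between 0.675 and 4.49 CPM.

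Markers of other cells differed between libraries beside *Timd4*. The lists had been summed as CPM in every library. The 7 neutrophil genes summed to between 614 and 6073 CPM in the sensitive and between 323 and 1558 CPM in the resistant group, with 7 of 7 log2 fold changes below 0 and 2 lower at an unadjusted p-value under 0.05, a rule that 2.54% of all tested genes met downwards and 0.536% upwards. The 10 genes of recruited monocytes summed to between 2866 and 6265 CPM and between 2452 and 5265 CPM, with 10 of 10 below 0 and 4 lower. The 6 genes of lipid-associated macrophages summed to 6237, 5661 and 5723 CPM in the sensitive and to 3134, 10306 and 7661 CPM in the resistant libraries. The libraries lowest for *Timd4* thus had the highest sums. *Gpnmb* made up most of those sums, with 6663 and 4651 CPM in the resistant libraries 2 and 3. *Gpnmb*, *Trem2* and *Spp1* were highest in those libraries. *Cd9* was highest in the sensitive library 1 and *Lgals3* in the sensitive library 2. *Fabp5* was lower in the resistant library 3 than in the sensitive library 3. For 12 pan-endothelial genes the sums were between 237 and 457 CPM and between 47.9 and 384 CPM, with 12 of 12 below 0 and 4 lower. A large part of these sums was *Cdh5*, which is also on the list of 19 other Kupffer cell genes. *Cdh5* measured 195, 42.0 and 219 CPM against 216, 18.0 and 234 CPM. Its log2 fold change, counted among those below 0, was -0.001. The 11 LSEC genes summed to between 167 and 438 CPM and between 133 and 478 CPM, with 10 of 11 below 0 and 1 lower. The 9 stellate cell genes summed to between 69.4 and 124 CPM and between 84.3 and 271 CPM, with 6 of the 8 tested above 0, 2 below 0 and 1 lower. The 7 hepatocyte genes summed to between 29.0 and 79.8 CPM and between 57.9 and 145 CPM, with 6 of the 6 tested above 0 and 1 higher. Of the 6 genes of lipid-associated macrophages 4 were above and 2 below 0, and of the 14 general macrophage genes 7 were above and 7 below, with 1 lower. Lymphoid and plasmacytoid dendritic cell genes summed to at most 1.93 CPM. The part of these cells in the members' values was not tested.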

How the data were processed

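The 6 RNA-seq libraries were assigned to the bevacizumab-sensitive or bevacizumab-resistant group, 3 each, and numbered by their titles. The series' design text speaks of culture medium of another cell line, and the titles were followed. The methods describe poly(A) purification as well as depletion of ribosomal RNA, without saying which was used for these libraries. The authors aligned paired-end reads with HISAT2 2.0.5 and counted them per gene with featureCounts 1.5.0-p3, and the counts were deposited unnormalized. The deposited FPKM values were computed by the authors from the counts and gene lengths. The submitters' processing notes name the build mm9. Strandedness of the counting and the annotation are not given in the sources used here. A further deposited table holds the authors' own comparison (group means, fold changes and p-values) and was not used. Total counts were between 17599326 and 20726684 per library.

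Members were found by symbol. Gene positions come from GENCODE M21 (GRCm38) by Ensembl identifier, promoters are of GRCm38.p6 from RefSeq, and the files themselves hold no coordinates. The comparison used edgeR 4.0.16 under R 4.3.3 with filterByExpr, TMM scaling and the quasi-likelihood test with robust moderation, two-sided, without covariates. Benjamini-Hochberg adjustment ran over all 15474 genes tested, with a threshold of 0.05. Log2 CPM for patterns, variances, relative levels and exact permutation tests used TMM and a prior count of 2. Alternatives were DESeq2 1.42.0, limma-voom and a limma trend on log2(FPKM + 1) with limma 3.58.1, other scalings and filters, a block on the replicate number, and fits without each library.

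The members, the gene lists and the tests were chosen with earlier results of these data known, and no list is independent support. Of each further Kupffer cell or niche list, at most 4 genes were named, namely the 2 with the highest mean CPM and the 2 with the largest absolute log2 fold change among those tested. All family genes were eligible, with 3 genes of most similar pattern per member. Of other lists, markers near 0 were named, and with them *Stab2*, the 6 genes of lipid-associated macrophages and, marked in the text, *Vcam1*. *Lyve1* and *Cdh5* were also named, after their values had been seen. One gene that the rule selects is not reported here.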

Additional observations from a re-analysis of the deposited data

How the results depend on the processing

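None of the alternatives brought a member to an adjusted p-value under 0.05. Over all genes, edgeR called 0 genes (476 at an unadjusted p-value under 0.05), DESeq2's Wald test 24 (732 unadjusted) and edgeR with no filter on low counts 2 (2036 unadjusted), and the cause was not tested. Every other fit called 0, the replicate block among them, with 467 unadjusted. Leaving out single libraries gave 0 genes each time, with 166 to 971 unadjusted. Replicate numbers did not pair the libraries (correlations of deviations of -0.001, 0.034 and 0.194 for numbers 1, 2 and 3), and with the block *Timd4* had a log2 fold change of -2.11. Of 98 alternative fold changes of the 7 tested members, 92 kept their sign, 6 changed it and 0 crossed the threshold. *Id1* was 0.071 in limma-voom, 0.081 on log2(FPKM + 1) and 0.031 with the replicate block, and from -0.50 to 0.36 with single libraries left out. *Id3* ranged from -0.31 to 0.52 with single libraries left out. *Timd4* stayed between -2.87 and -1.29, with unadjusted p-values from edgeR of 0.000376 to 0.104 when single libraries were left out and adjusted p-values of 0.543 to 1.00 over its alternatives. Of 69 relative levels, 61 kept their sign. Read against *Adgre1* alone, the difference was -0.13 for *Vsig4*, -0.68 for *Id1* and -0.55 for *Id3*. Read against *Clec4f* alone, an alternative chosen after seeing the data, it was 0.22 for *Cd5l* and 0.14 for *Folr2*. With single libraries left out it went from -0.46 to 0.57 for *Id1* and from -0.21 to 0.63 for *Id3*. The filter on low counts left *Cd209f*, with 3 counts or fewer, out of the main test, while the other members had at least 159 counts in every library. With no such filter, edgeR gave *Cd209f* a log2 fold change of -3.13 and an adjusted p-value of 0.72. That value rests on the 3 counts of the sensitive library 1.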
